A study of Homo sapiens with 12 samples.

Results

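A set of 9 genes that androgen is classically known to induce in prostate cells was followed through 12 RNA-sequencing libraries in which the level of the glycosyltransferase GALNT7 had been changed. The 9 target genes were chosen by name, as textbook androgen-responsive genes, with earlier results of these data known. Each was found by its Ensembl identifier in both deposited tables. The 9 were KLK3, KLK2, KLK4, TMPRSS2, STEAP1, STEAP2, SLC45A3, PMEPA1 and FKBP5, out of the 59424 genes listed. There were 4 groups of 3 biological replicates. CWR22RV1 cells, an androgen-responsive line from a human prostate cancer xenograft, had been made stable by lentiviral transduction with either a control hairpin (shControl) or a hairpin against GALNT7 (GALNT7 KD). DU145 cells, a prostate cancer line without functional androgen signalling, had been transduced with the open reading frame of GALNT7 (GALNT7 OE) or with a control frame (OE control). All 4 groups carried a lentiviral vector. Neither androgen treatment nor whether the 3 cultures of a group came from separate transductions was given in the sources used here, so p-values below measure the spread between the cultures labelled as biological replicates.

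Androgen acts on the prostate through a hormone-bound transcription factor of the nuclear receptor family, which HSP90 and its co-chaperones hold until testosterone or dihydrotestosterone binds. It then enters the nucleus, binds androgen response elements as a dimer and, with pioneer factors such as FOXA1 and HOXB13, switches on a set of genes that defines the secretory luminal cell of the prostate. The product of KLK3, prostate-specific antigen, is the best known of these and is measured in blood as a marker of the disease.

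Sequencing depth was similar across libraries, with 18364512 to 22264533 reads assigned to genes in the CWR22RV1 libraries and 21628718 to 24356910 in the DU145 libraries, counting each library's smallest value above 0 as 1 read. Values are normalised read counts, that is, reads per gene divided by a scaling factor per library that was set within each cell line. A count of 3 reads corresponds to 2.65 to 3.2 normalised counts in CWR22RV1 and to 2.77 to 3.15 in DU145, and such limits cover counting error only. GALNT7 itself checked the labels. It stood at 999 ± 122 in shControl and 461 ± 53.7 in GALNT7 KD (SD, n = 3 each), a log2 fold change of -1.11 (adjusted p = 0.0051). It stood at 964 ± 75.8 in OE control and 2181 ± 176 in GALNT7 OE, a log2 fold change of 1.18 (adjusted p = 8e-05), where reads from the introduced open reading frame count towards the gene. The luminal keratins KRT8 and KRT18 were abundant in all 4 groups and the basal keratins KRT5 and KRT6A were at 0. The summed count of 7 luminal markers ran from 39910 to 40050 in shControl, 44170 to 47640 in GALNT7 KD, 30120 to 32450 in OE control and 27780 to 30440 in GALNT7 OE. The luminal markers did not move together. With knockdown KRT19 rose (6739 in shControl, 10995 in GALNT7 KD, adjusted p = 0.0047). KRT18 (6199 and 4877, adjusted p = 0.024) and EPCAM (422 and 258, adjusted p = 0.013) fell. In DU145 EPCAM rose (372 in OE control, 575 in GALNT7 OE, adjusted p = 0.0016) and CDH1 fell (2016 and 1362, adjusted p = 0.0092). HOXB13, a defining gene of prostate epithelium, averaged 5972 in shControl and 4.7 in OE control. The sums of markers of other cell types lay far below the luminal sums, and some moved with the groups. The summed count of 5 basal markers was 132.8 to 168.9 in shControl and 265.6 to 340.3 in GALNT7 KD, nearly all of it KRT15. In DU145 the basal sum was 27.2 to 54.4 in OE control and 48.2 to 55.5 in GALNT7 OE. The sum of 7 neuroendocrine markers was 147.5 to 185.9 in shControl against 97.7 to 111.7 in GALNT7 KD. In DU145 it was 15.3 to 25.8 in OE control against 35.7 to 48.0 in GALNT7 OE. Different genes carried these changes in each line. With knockdown SCG3 fell (54.1 in shControl, 18.7 in GALNT7 KD, adjusted p = 0.033). CHGB averaged 24.5 and 10.7 (adjusted p = 0.17) and SYP 81.7 and 73.1 (adjusted p = 0.60). In DU145 SYP rose (17.1 in OE control, 38.9 in GALNT7 OE, adjusted p = 0.017), and the other 6 markers averaged under 5 in each group. The sum of 7 leukocyte and stromal markers was 70.5 to 107 in shControl, 70.4 to 112 in GALNT7 KD, 375.8 to 509.7 in OE control and 94.3 to 189.4 in GALNT7 OE, with CD3E at 0 throughout. In OE control 5 of these 7 averaged under 5. Of the 3 tested in DU145, 2 were called lower, beside 20.5% lower among all genes tested. The part of these marker changes in the results below was not tested.

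KLK3 and KLK2 are neighbours on chromosome 19 with closely related promoters, so their sequences are shown before their values. Promoter sequences from RefSeq (GRCh38.p14) matched 8 of the 9 targets, with TMPRSS2 unmatched. Each run below is the 250 bases before the RefSeq transcription start, read on the plus strand, and the capitals mark the 14-base run around the half-site of the androgen response element in KLK3 that KLK2 holds too. KLK3 is taken from chr19:50854665-50854914 and KLK2 from chr19:50873189-50873438, the latter inside the gene as GENCODE draws it because a longer transcript starts further upstream.
KLK3: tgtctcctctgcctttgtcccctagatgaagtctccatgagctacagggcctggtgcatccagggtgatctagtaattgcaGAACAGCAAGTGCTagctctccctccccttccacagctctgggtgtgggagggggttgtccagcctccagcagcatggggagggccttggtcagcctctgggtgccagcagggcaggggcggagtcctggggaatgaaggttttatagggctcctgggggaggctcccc
KLK2: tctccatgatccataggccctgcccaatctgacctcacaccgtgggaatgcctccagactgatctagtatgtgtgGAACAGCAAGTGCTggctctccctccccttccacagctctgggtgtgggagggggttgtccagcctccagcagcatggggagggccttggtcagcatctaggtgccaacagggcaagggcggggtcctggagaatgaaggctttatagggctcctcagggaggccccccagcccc
The 2 upstream regions were identical at 205 of 241 aligned bases (85.1%), with 18 gap positions. In KLK3 the 14 bases lie at -169 to -156 from the start and, with the base before them, hold that half-site, AGAACA, at -170 to -165. This is the long-known proximal element of the KLK3 promoter. In KLK2 the same 14 bases lie at -175 to -162. The run GAACAGCAAGTGCT, searched on both strands and chosen after the pair had been compared, was found at 2 of 35116 RefSeq starts (0.0057%), those of KLK3 and KLK2. The half-site AGAACA, which overlaps it, was found at 12.4% of all starts, and among the targets at KLK3 and at 1 of the 4 starts of PMEPA1. The full palindrome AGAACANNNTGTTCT was found at 1 start and at none of the targets, which says only that these letters are not in these windows.

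The first comparison asked how the targets responded to GALNT7 knockdown in the androgen-responsive line. They did not all move in the same direction. KLK3, KLK2, STEAP1 and FKBP5 rose, TMPRSS2 and KLK4 fell, and STEAP2, SLC45A3 and PMEPA1 did not pass the threshold. All 9 targets had enough reads to be tested, and 6 were called (4 higher and 2 lower), where 9.06% of all 17906 genes tested were called, 5.28% higher and 3.79% lower. The 2 groups did not overlap for 7 of the 9, against 32.5% of all genes tested. The median log2 fold change of the 9 was 0.21, and that of all genes tested was -0.01. The exact two-sided permutation test of 3 against 3 libraries cannot give a p under 0.1, so adjusted p-values come from limma's fit over all genes. Libraries were made from whole cultures, in which less RNA per cell and fewer cells expressing a gene cannot be told apart.

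**Figure D1:**
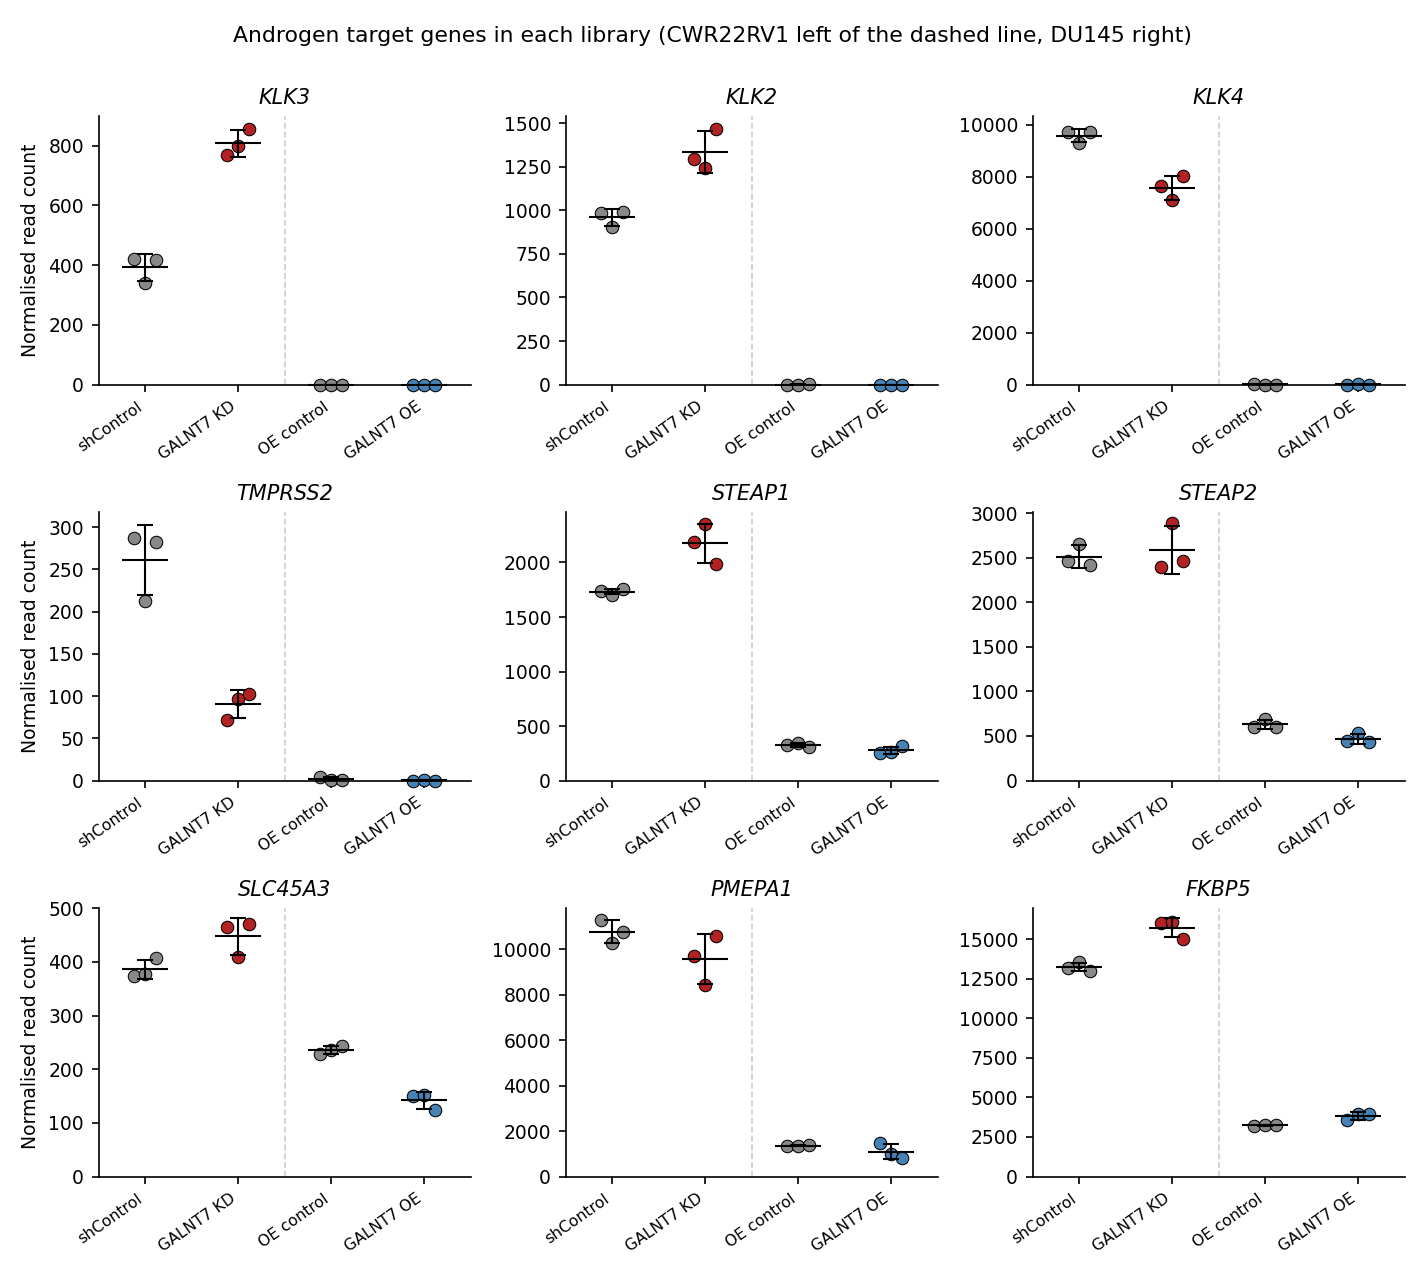
Normalised read count (vertical axes, from 0) of the 9 androgen targets in the 3 libraries of each group, with CWR22RV1 left of the dashed line and DU145 right of it. Points are libraries, the long bar is the mean and the whiskers are the SD, and the 2 cell lines were scaled separately. KLK3 and TMPRSS2 move in opposite directions with knockdown, and KLK3, KLK2, KLK4 and TMPRSS2 lie at or near 0 in DU145.

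The secreted serine proteases of the kallikrein family moved in both directions. KLK3 (ENSG00000142515, chr19:50854915-50860764, plus strand) had 420, 339 and 418 normalised counts in shControl and 768, 799 and 856 in GALNT7 KD. Every knockdown library lay well above every control library. The means were 392 ± 46.3 and 808 ± 45.0 (SD, n = 3 each), a 2.06-fold increase, with a log2 fold change of 1.05 ± 0.11 (SE) and an adjusted p of 0.0037.

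KLK2 (ENSG00000167751, chr19:50861568-50880567, plus strand) encodes the protease that can cut pro-PSA to its active form. Its normalised counts were 985, 904 and 990 in shControl and 1296, 1241 and 1468 in GALNT7 KD, again with no overlap. The means were 959 ± 48.4 and 1335 ± 119, 1.39-fold higher with knockdown (log2 fold change 0.47 ± 0.09 SE, adjusted p = 0.021). With 1 library left out at a time, the call of KLK2 was lost without shControl replicate 1, 2 or 3 (adjusted p of 0.069, 0.065 and 0.062) or GALNT7 KD replicate 1 (0.07), and held without GALNT7 KD replicate 2 or 3 (0.033 and 0.037). KLK3 and KLK2 are close relatives, so reads could be split between them. Of the 31-base words in KLK3 transcripts, 1.22% also occur in another gene (KLK2), and of those in KLK2 transcripts 1.84% do.

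KLK4 (ENSG00000167749, chr19:50906352-50910738, minus strand), a trypsin-like protease with roles in prostate and enamel, was by far the most abundant of these proteases. It had 9731, 9283 and 9735 normalised counts in shControl and 7646, 7087 and 8008 in GALNT7 KD. All knockdown libraries were lower. The means were 9583 ± 260 and 7581 ± 464, which put shControl 1.26-fold higher (log2 fold change -0.34 ± 0.05 SE, adjusted p = 0.014). The adjusted p of KLK4 was 0.06 without shControl replicate 1, 0.057 without shControl replicate 3 and 0.058 without GALNT7 KD replicate 1.

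Sums and ratios of the neighbouring kallikreins were also formed within each library. The summed normalised count of KLK2 and KLK3 was 1351 ± 94.6 in shControl and 2142 ± 158 in GALNT7 KD. KLK4 stood at 7.11 ± 0.318 times that sum in shControl and at 3.54 ± 0.143 times in GALNT7 KD. The ratio of KLK3 to KLK2, which no scaling of a library can change, was 0.427, 0.375 and 0.422 in shControl and 0.593, 0.644 and 0.583 in GALNT7 KD. Each of these 3 quantities was formed after the values had been seen, and none overlapped between the groups. For the sum and for KLK4 over the sum this follows from the values of the single genes, so it is no further test. For the ratio of KLK3 to KLK2 the exact permutation test gave p = 0.1, the smallest possible here.

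These genes lie within 91.6 kb (chr19:50819148-50910738) that run from KLK1 to KLK4. KLK1, tissue kallikrein, had 1071 ± 17.0 normalised counts in shControl and 978 ± 39.4 in GALNT7 KD (log2 fold change -0.13, adjusted p = 0.24). KLK15 had 39.2 ± 17.0 and 58.9 ± 14.0 (0.63, adjusted p = 0.30), and the pseudogene KLKP1, named here after its values had been seen, had 50.5 ± 10.4 and 65.2 ± 11 (0.37, adjusted p = 0.34). Of the 15 kallikrein genes of the cluster, 8 were tested and 3 called, beside 9.06% called among all genes tested. The 3 called are all targets followed here and already counted above. Among the others tested, KLK8, KLK10 and KLK14 averaged 4.57, 15.2 and 6.05 in shControl and 14.2, 10.2 and 4.03 in GALNT7 KD, with adjusted p-values of 0.60, 0.43 and 0.52. KLK5, KLK6, KLK7, KLK9, KLK11, KLK12 and KLK13 averaged under 5 over the 6 libraries and were not tested.

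**Figure D2:**
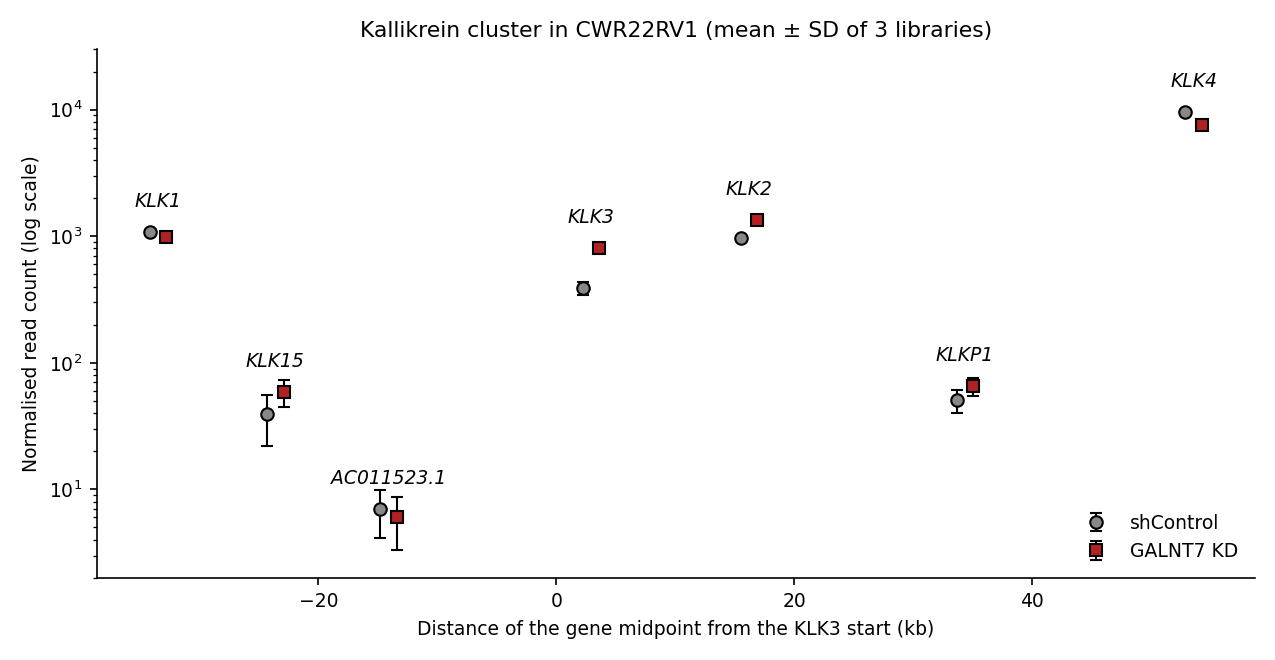
Mean normalised read count (vertical log axis, whiskers SD, n = 3 libraries) of the genes from KLK1 to KLK4 in CWR22RV1, at the distance of each gene's midpoint from the KLK3 start (horizontal axis, kb). KLK3 and KLK2 stood higher with knockdown (808 against 392 and 1335 against 959), KLK4 stood lower (7581 against 9583), and the other genes did not pass the threshold.

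TMPRSS2 (ENSG00000184012, chr21:41464551-41531116, minus strand) encodes an androgen-induced serine protease of the cell surface. It had 287, 213 and 283 normalised counts in shControl and 71.5, 97.1 and 103 in GALNT7 KD. The highest knockdown library was well under the lowest control library. The means were 261 ± 41.7 and 90.6 ± 16.7, so that shControl was 2.88-fold higher, with a log2 fold change of -1.52 ± 0.19 (SE) and an adjusted p of 0.0074. This was the largest change among the targets tested in either comparison. KLK3 and TMPRSS2 were the 2 targets that passed the threshold without any 1 of the 6 libraries, with highest adjusted p-values of 0.021 and 0.038.

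STEAP1 and STEAP2 are neighbouring genes on chromosome 7 for multi-span membrane proteins, and STEAP2 and the related STEAP3 and STEAP4 act as metalloreductases. STEAP1 (ENSG00000164647, chr7:90154375-90164829, plus strand) had 1741, 1704 and 1754 normalised counts in shControl and 2192, 2349 and 1986 in GALNT7 KD, without overlap. The means were 1733 ± 26.2 and 2176 ± 182 (log2 fold change 0.32 ± 0.07 SE, adjusted p = 0.041). This call was the weakest of the 6: the adjusted p lay between 0.083 and 0.13 without any 1 of shControl replicates 1 to 3 or GALNT7 KD replicates 1 and 2, and at 0.024 without GALNT7 KD replicate 3. In addition, 33.5% of the 31-base words in STEAP1 transcripts also occur in STEAP1B, so that reads could be split between them. STEAP1B averaged 13.0 in shControl and 12.3 in GALNT7 KD.

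STEAP2 (ENSG00000157214, chr7:90167590-90238137, plus strand) had 2459, 2658 and 2418 normalised counts in shControl and 2393, 2889 and 2466 in GALNT7 KD. The control range lay inside the knockdown range, and the log2 fold change was 0.04 with a 95% confidence interval from -0.16 to 0.24 (adjusted p = 0.83), a sign that turned under quantile normalisation and without GALNT7 KD replicate 2 (-0.01 and -0.05). STEAP3 averaged 406 and 469 (0.21, adjusted p = 0.17), and STEAP4 averaged 26.7 and 23.9 (-0.20, adjusted p = 0.78, with a log2 fold change of 0.13 and an adjusted p of 0.82 without GALNT7 KD replicate 2). Of the 5 STEAP genes, all were tested and STEAP1 was called, beside 9.06% called among all genes tested. An antisense gene, STEAP2-AS1, overlaps STEAP1 and STEAP2 on the other strand. The library kit keeps strand, and the setting used for counting was not given in the sources used here.

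SLC45A3, known as prostein, encodes a membrane transporter used as a marker of prostate origin. SLC45A3 (ENSG00000158715, chr1:205657851-205680459, minus strand) had 373, 378 and 407 normalised counts in shControl and 465, 409 and 471 in GALNT7 KD. The groups did not overlap, by a narrow margin, and the log2 fold change of 0.21 (95% confidence interval -0.01 to 0.44) did not pass the threshold (adjusted p = 0.21). PMEPA1, a membrane adaptor that dampens TGF-beta and androgen signalling, had 11278, 10261 and 10756 normalised counts in shControl and 9696, 8407 and 10585 in GALNT7 KD. PMEPA1 (ENSG00000124225, chr20:57648392-57711536, minus strand) overlapped between the groups, and its log2 fold change was -0.18 (95% confidence interval -0.38 to 0.03, adjusted p = 0.25). The antisense gene NKILA overlaps PMEPA1 on the other strand.

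FKBP5 (ENSG00000096060, chr6:35573585-35728583, minus strand) encodes FKBP51, an HSP90 co-chaperone of steroid receptors that both androgens and glucocorticoids induce. The gene overlaps MIR5690 on its own strand and RF00561 and AL033519.1 on the other. It had 13163, 13531 and 12999 normalised counts in shControl and 16045, 16063 and 15016 in GALNT7 KD, with every knockdown library higher. The means were 13231 ± 273 and 15708 ± 600, a 1.19-fold increase (log2 fold change 0.25 ± 0.04 SE, adjusted p = 0.014). The adjusted p of FKBP5 was 0.06 without shControl replicate 1, 0.058 without shControl replicate 3 and 0.066 without GALNT7 KD replicate 1. Over the fits that left out 1 library each, the number of targets called ran from 2 to 6, and 2 were called without shControl replicate 1, shControl replicate 3 or GALNT7 KD replicate 1. The 2 that were left each time were KLK3 and TMPRSS2. A fit that did not let the variance depend on the expression level also called 2 (KLK2, KLK4, STEAP1 and FKBP5 at adjusted p-values of 0.055, 0.072, 0.099 and 0.11), while edgeR and DESeq2 on recovered reads called 6 each.

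**Figure D3:**
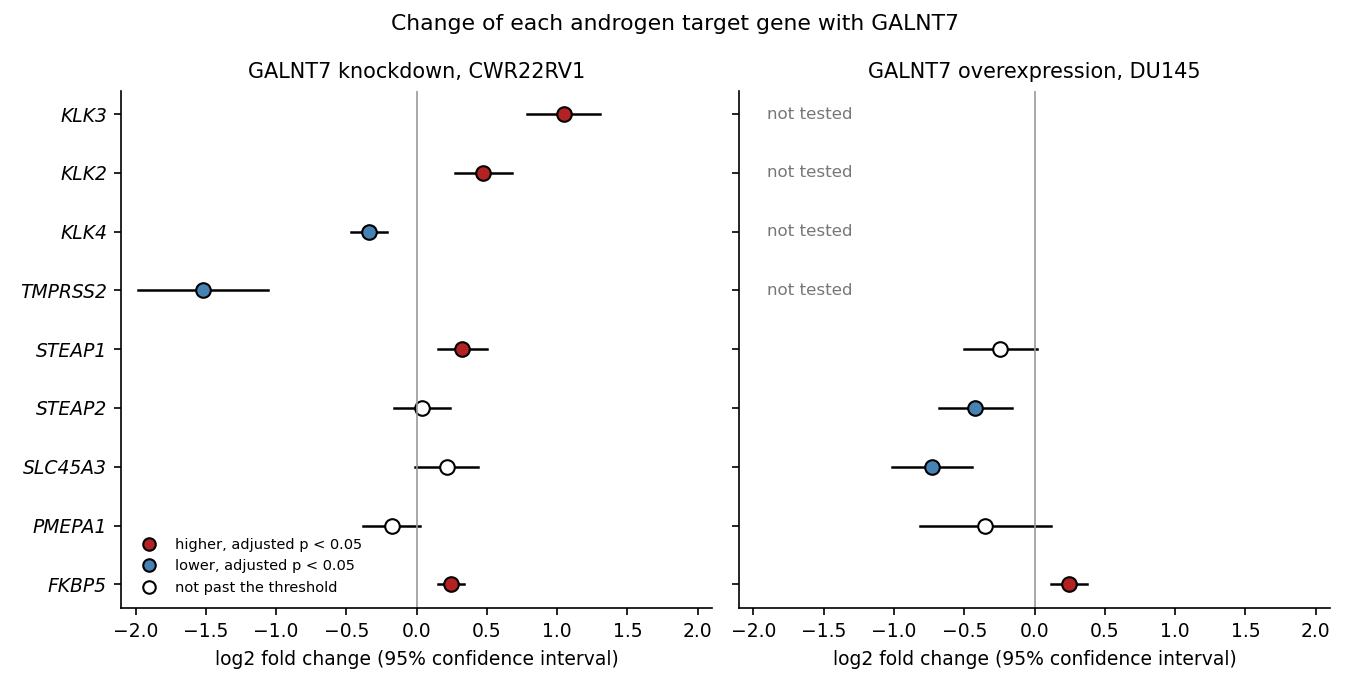
Log2 fold change (horizontal axis) of the 9 targets with GALNT7 knockdown in CWR22RV1 (left) and with GALNT7 overexpression in DU145 (right), with 95% confidence intervals from limma and n = 3 libraries per group. Red points were higher and blue points lower past the threshold, and white points did not pass it. TMPRSS2 (-1.52) and KLK3 (1.05) lie at the ends of the left panel, and FKBP5 was higher in both panels (0.25 and 0.24).

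The targets differed widely in abundance before any knockdown. Levels were compared between genes as RPKM, the reads of a gene divided by its annotated exon length in kilobases and by the size of the library, called here the level per length. In shControl the order of this level was KLK4 (251), PMEPA1 (97.2), FKBP5 (63.2), STEAP1 (54.1), STEAP2 (14.6), KLK2 (7.62), SLC45A3 (5.29), KLK3 (4.29) and TMPRSS2 (2.17), and no neighbours in this order overlapped between libraries. The gene for prostate-specific antigen was thus the target with the next to lowest level per length in these cells, and KLK4 was the highest. In GALNT7 KD, KLK3 (8.86) stood above SLC45A3 (6.16) and TMPRSS2 fell to 0.753, while PMEPA1 and FKBP5, and FKBP5 and STEAP1, overlapped between libraries. Annotated exon length counts exons of all transcripts, so a level per length understates a gene that mainly makes a short transcript.

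**Figure D4:**
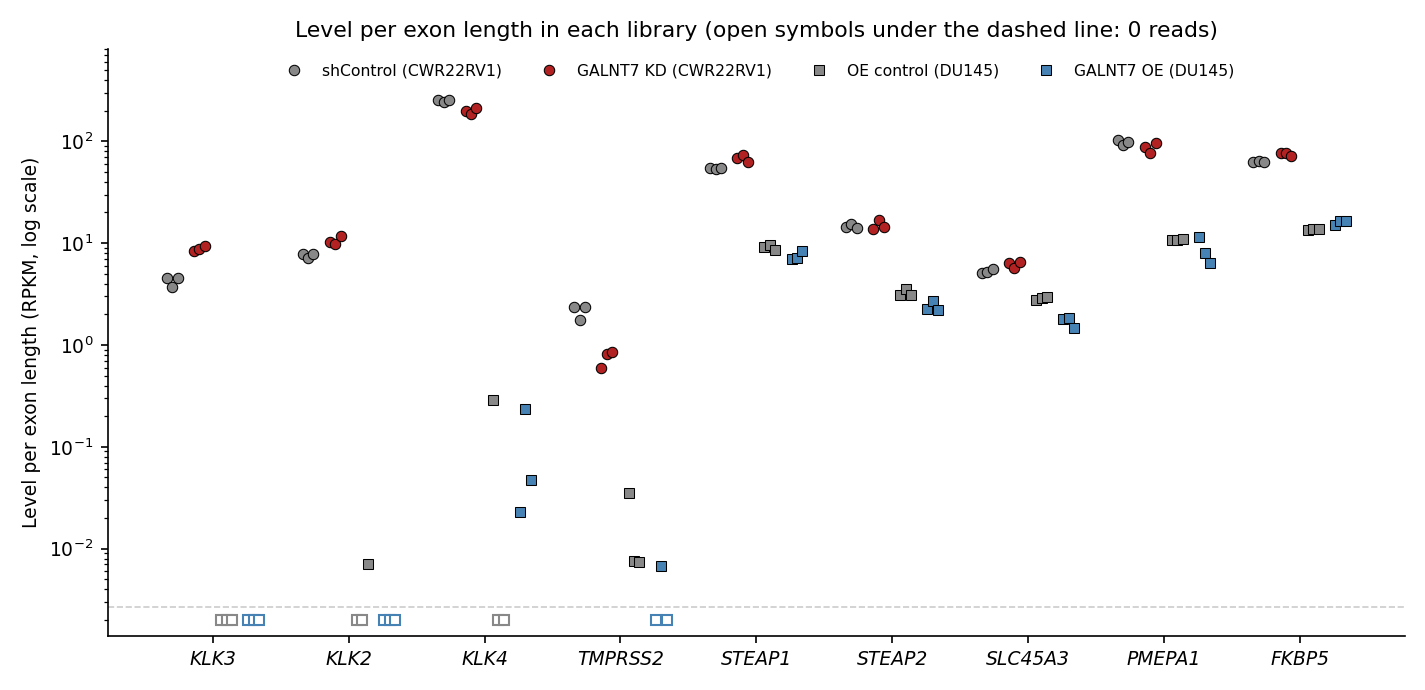
Level per exon length (RPKM, vertical log axis) of the 9 targets in each of the 12 libraries, with circles for CWR22RV1 and squares for DU145. Open symbols under the dashed line stand for libraries with 0 reads. The kallikreins and TMPRSS2 lie far lower in DU145, and the other 5 targets are measured in both lines.

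The 9 targets split into 2 sets in DU145 cells. KLK3 had 0 reads in all 6 libraries, which allows up to 3 reads in each. KLK2 had 1 read, in OE control replicate 3. KLK4 had 13, 0 and 0 reads in OE control and 1, 11 and 2 in GALNT7 OE, and TMPRSS2 had 5, 1 and 1 reads and 0, 1 and 0. These 4 targets averaged under 5 normalised counts and were not tested. The other 5 were plainly expressed. In OE control their level per length was 13.7 for FKBP5, 10.8 for PMEPA1, 9.07 for STEAP1, 3.26 for STEAP2 and 2.87 for SLC45A3, where shControl cells had 63.2, 97.2, 54.1, 14.6 and 5.29. The cell lines were scaled separately and carried different vectors, so these levels are set side by side with no test between lines.

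With GALNT7 overexpression in DU145, SLC45A3 and STEAP2 were called lower and FKBP5 was called higher. Of the 5 targets tested, 3 were called (1 higher and 2 lower), where 43.5% of all 18705 genes tested were called, 22.9% higher and 20.5% lower. The groups did not overlap for 3 of 5, against 55.3% of all genes tested. With so few targets and so many genes called, these counts do not set the targets apart from all genes. The calls over all genes were 4290 higher and 3842 lower, and became 3380 higher and 4736 lower after rescaling to the 75th percentile. The median log2 fold change of the 5 was -0.35 and that of all genes tested was -0.01.

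SLC45A3 had 229, 235 and 243 normalised counts in OE control and 150, 152 and 124 in GALNT7 OE. All OE libraries were lower, with means of 236 ± 6.88 and 142 ± 16.0, a log2 fold change of -0.73 ± 0.12 (SE) and an adjusted p of 0.0029. The call held without any 1 library, with adjusted p-values of at most 0.014. STEAP2 had 606, 685 and 597 in OE control and 440, 536 and 437 in GALNT7 OE, also without overlap (log2 fold change -0.42 ± 0.11 SE, adjusted p = 0.019). The adjusted p of STEAP2 was 0.064 without OE control replicate 2, 0.054 without GALNT7 OE replicate 1 and 0.059 without GALNT7 OE replicate 3.

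FKBP5 had 3191, 3269 and 3239 normalised counts in OE control and 3567, 3963 and 3968 in GALNT7 OE. Every OE library was higher, and the log2 fold change was 0.24 ± 0.05 (SE, adjusted p = 0.011). Its call was lost after rescaling to the 75th percentile (0.14, adjusted p = 0.060) and after quantile normalisation (0.14, adjusted p = 0.064). FKBP5 was thus higher where GALNT7 was lowered in CWR22RV1 (0.25) and higher where GALNT7 was raised in DU145 (0.24).

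STEAP1 and PMEPA1 did not pass the threshold in DU145. STEAP1 had 329, 341 and 311 in OE control and 257, 262 and 313 in GALNT7 OE, where replicate 3 reached the control range (log2 fold change -0.24, 95% confidence interval -0.50 to 0.01, adjusted p = 0.11). Its adjusted p was 0.044 without GALNT7 OE replicate 3 and 0.038 after rescaling to the 75th percentile. PMEPA1 had 1353, 1332 and 1367 in OE control and 1460, 1004 and 809 in GALNT7 OE, where replicate 1 lay above all controls and replicates 2 and 3 below them (-0.35, 95% confidence interval -0.82 to 0.12, adjusted p = 0.19). Without GALNT7 OE replicate 1 the log2 fold change of PMEPA1 was -0.58 (adjusted p = 0.0068).

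The other genes of the pathway were read from lists of known androgen-responsive genes, cofactors, receptors and enzymes. These lists too were chosen with earlier results of these data known. Values given below as 1 number to another are the mean normalised counts of the control and of the changed group (n = 3 each), followed by the log2 fold change. Of 48 other androgen-induced genes, 46 were tested in CWR22RV1, and 11 were higher and 5 lower with knockdown, beside 5.28% higher and 3.79% lower among all genes tested. Their median log2 fold change was 0.14, beside -0.01 for all genes tested. The genes with the largest increases were MAF, a bZIP transcription factor (533 to 1920 normalised counts, log2 fold change 1.85, adjusted p = 0.0001), the long non-coding RNA PART1 (71.7 to 196, 1.43, adjusted p = 0.0035), ADAM7 (201 to 481, 1.25, adjusted p = 0.0014) and NDRG1, a stress- and differentiation-linked gene (2211 to 4485, 1.02, adjusted p = 0.00051). The largest decreases were those of GCNT1, a core 2 O-glycan branching enzyme (1415 to 736, -0.96, adjusted p = 0.010), the kinase scaffold AKAP12 (1482 to 805, -0.88, adjusted p = 0.0082), and AZGP1, which encodes zinc-alpha-2-glycoprotein (2887 to 2113, -0.45, adjusted p = 0.0039).

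In DU145, 40 of the 48 were tested, and 9 were higher and 13 lower with GALNT7 overexpression, beside 22.9% higher and 20.5% lower among all genes tested. The share that was higher was thus close to that of all genes, and the share that was lower was larger than that of all genes. The median was -0.09, beside -0.01 for all genes tested. The list was not tested as a set. CENPN, a centromere protein (263 to 1059, 2.01, adjusted p = 1.1e-05), ODC1, the first enzyme of polyamine synthesis (1543 to 3889, 1.33, adjusted p = 6.8e-06), the condensin subunit NCAPD3 (1955 to 3669, 0.91, adjusted p = 0.00026) and MPHOSPH9 (1037 to 1828, 0.82, adjusted p = 5e-05) rose most. The kinase gene SGK1 (1781 to 349, -2.35, adjusted p = 8.6e-06), NDRG1 (9948 to 3051, -1.71, adjusted p = 6.2e-06), SAT1, which acetylates polyamines for breakdown (8257 to 2667, -1.63, adjusted p = 2.9e-06), and TSC22D1 (6429 to 3682, -0.81, adjusted p = 9.8e-05) fell most. Of this list, 7 genes were called in both comparisons. Among all genes tested, 9.06% were called in the knockdown and 43.5% in the overexpression. The share of all genes called in both, and their directions, were not counted, so these 7 cannot be set against it. Among the 7, NDRG1, TSC22D1, ABCC4 and RAB3B were higher with knockdown and lower with overexpression, while EAF2 was higher and AKAP12 lower in both.

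**Figure D5:**
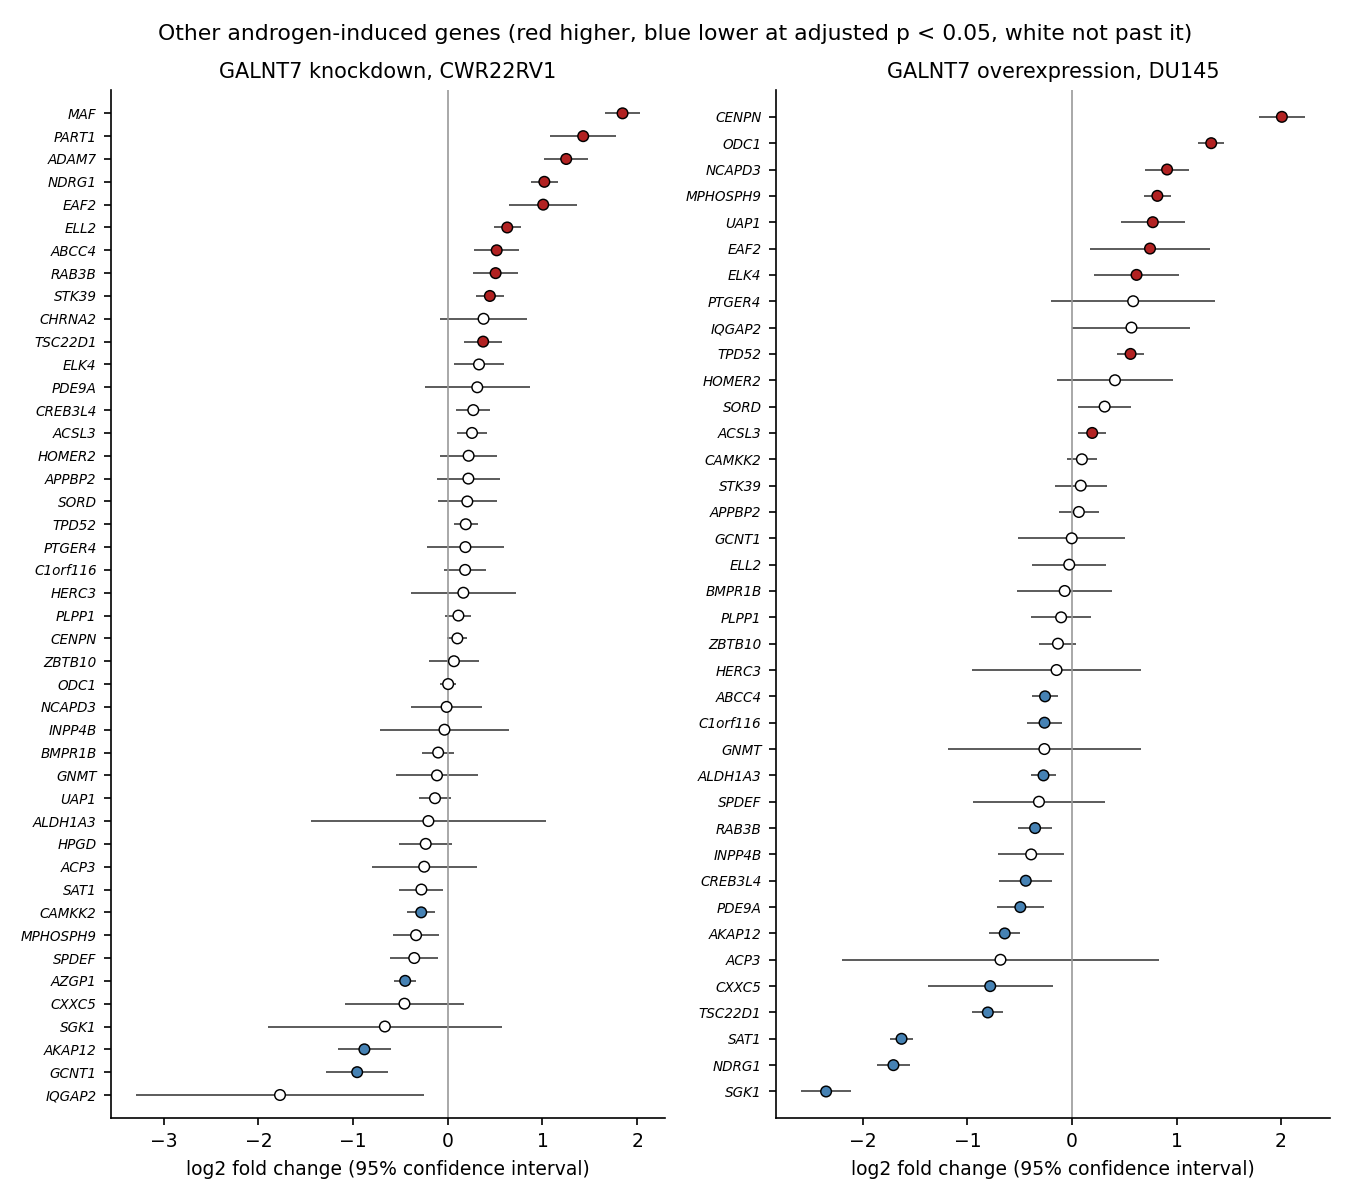
Log2 fold change (horizontal axes, with 95% confidence intervals) of 44 other androgen-induced genes with GALNT7 knockdown in CWR22RV1 (left) and 38 with GALNT7 overexpression in DU145 (right), n = 3 libraries per group. Red was higher and blue lower past the threshold, with 10 and 4 of the genes shown on the left and 9 and 12 on the right. MAF (1.85) heads the left panel and SGK1 (-2.35) ends the right one.

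Among 20 cofactors of the androgen response, all tested in CWR22RV1, 3 were higher and 4 lower with knockdown (median -0.08), beside 5.28% higher and 3.79% lower among all genes tested. The SUMO ligase PIAS1 (1231 to 2060, log2 fold change 0.75, adjusted p = 0.0059) and the chaperones HSP90AA1 (0.28, adjusted p = 0.0072) and HSP90AB1 (0.17, adjusted p = 0.019) rose. FKBP4, which encodes the co-chaperone FKBP52 (10163 to 5871, -0.80, adjusted p = 0.012), the coactivator NCOA1 (812 to 578, -0.49, adjusted p = 0.036), the pioneer factor FOXA1 (6048 to 5176, -0.22, adjusted p = 0.043) and the HSP90 co-chaperone PTGES3 (11357 to 10159, -0.16, adjusted p = 0.041) fell. Over the fits that left out 1 library each, NCOA1 and PTGES3 lost their calls every time (adjusted p of 0.051 to 0.12 and 0.075 to 0.12), FOXA1 without any library but shControl replicate 2 (0.068 to 0.14), HSP90AB1 without any library but GALNT7 KD replicate 3 (0.050 to 0.077), and FKBP4 without shControl replicate 1 (0.052). FKBP4 and PTGES3 lie on chromosome 12, where the median log2 fold change of all genes tested in the knockdown was -0.28, a shift whose part in these values was not tested. None of the 9 targets lies on that chromosome.

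In DU145, 19 of the 20 cofactors were tested, and 6 were higher and 1 lower with overexpression (median 0.22). With 43.5% of all genes tested called in this comparison, 7 called of 19 is no larger a share than that of all genes. PTGES3 (6788 to 11418, 0.75, adjusted p = 1e-05), HSP90AA1 (0.54, adjusted p = 1.1e-05), GATA2 (435 to 621, 0.51, adjusted p = 0.0036) and HSP90AB1 (0.46, adjusted p = 3.4e-05) rose most, and the coactivator NCOA4 fell (7096 to 5931, -0.26, adjusted p = 0.0032).

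The glucocorticoid and mineralocorticoid receptors can bind the same response elements as androgen uses, and FKBP5 belongs to the targets of glucocorticoids too. The glucocorticoid receptor gene NR3C1 averaged 620 in shControl and 398 in GALNT7 KD (log2 fold change -0.61, adjusted p = 0.073, and 0.041 without shControl replicate 2). DESeq2 gave it an adjusted p of 0.012. The mineralocorticoid receptor gene NR3C2 averaged 646 and 614 (-0.04, adjusted p = 0.91, with the sign turned without shControl replicate 2 or GALNT7 KD replicate 1 at 0.15 and 0.04). In DU145, NR3C1 averaged 4253 in OE control and 3700 in GALNT7 OE (-0.20, adjusted p = 0.054, and 0.012 without OE control replicate 3), NR3C2 averaged 21.1 and 24.8 (0.24, adjusted p = 0.56) and the oestrogen receptor gene ESR1 averaged 7.64 and 4.64 (-0.98, adjusted p = 0.34). NR3C1 in DU145 passed the threshold as lower after rescaling to the 75th percentile (-0.30, adjusted p = 0.0097) and after quantile normalisation (-0.29, adjusted p = 0.0093). It also did so with a filter at a mean of 20 (-0.20, adjusted p = 0.049). PGR and ESR2 were not tested in either line, and ESR1 was not tested in CWR22RV1.

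Of 7 glucocorticoid-responsive genes, FKBP5 included, all were tested in CWR22RV1 and 4 were higher with knockdown (median 0.51), beside 5.28% higher among all genes tested. They were KLF9 (932 to 1803, 0.95, adjusted p = 0.0012), TSC22D3, which encodes GILZ (375 to 571, 0.61, adjusted p = 0.022), the MAP kinase phosphatase gene DUSP1 (257 to 375, 0.54, adjusted p = 0.017) and FKBP5. DUSP1 lost its call without shControl replicate 1, 2 or 3 or GALNT7 KD replicate 1 (adjusted p of 0.054 to 0.069), and TSC22D3 without shControl replicate 2 or 3 or GALNT7 KD replicate 1 or 2 (0.062 to 0.081). PER1 (741 to 1069, 0.51, adjusted p = 0.11), ZBTB16 (954 to 1192, 0.31, adjusted p = 0.21) and SGK1 (22.3 to 12.5, -0.66, adjusted p = 0.47) did not pass the threshold. DESeq2 did call PER1 higher (0.53, adjusted p = 0.028). In DU145, 6 of the 7 were tested and 4 were called, beside 43.5% of all genes tested. SGK1 (above), DUSP1 (6226 to 4843, -0.36, adjusted p = 0.00038) and KLF9 (1006 to 825, -0.29, adjusted p = 0.0099) fell while FKBP5 rose. TSC22D3 (235 to 188, -0.32, adjusted p = 0.21) and PER1 (309 to 310, -0.02, adjusted p = 0.95, with a positive sign without OE control replicate 2 or GALNT7 OE replicate 2 at 0.05 and 0.15) did not pass it, and ZBTB16 was not tested. FKBP5 was the member of this list that was called higher in both comparisons.

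Genes that androgen represses gave few measurements. FOLH1, which encodes prostate-specific membrane antigen, fell with knockdown from 3119 to 2204 (-0.51, adjusted p = 0.038), and its adjusted p was 0.073 to 0.12 without any 1 library other than GALNT7 KD replicate 2. CCN3 averaged 26.1 and 16.7 (-0.62, adjusted p = 0.15) and ST6GAL1 703 and 915 (0.39, adjusted p = 0.097). In DU145, CCN3 fell from 49.4 to 13.5 (-1.80, adjusted p = 0.00068) and ST6GAL1 averaged 426 and 343 (-0.30, adjusted p = 0.15). UGT2B15, UGT2B17 and OPRK1 were not tested in either line, nor was FOLH1 in DU145.

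Of 14 enzymes of androgen synthesis and breakdown, 6 were tested in each line. In CWR22RV1 limma called 0 of the 6, with 1 at an unadjusted p under 0.05, where edgeR called 0 and DESeq2 called 1, SRD5A3 (920 to 1127, 0.29, adjusted p = 0.074 in limma). In DU145, 4 of the 6 were called, beside 43.5% of all genes tested. HSD17B4 (2263 to 2923, 0.37, adjusted p = 0.049) and SRD5A3 (513 to 619, 0.27, adjusted p = 0.027) rose, and AKR1C3, which makes testosterone from androstenedione (709 to 280, -1.34, adjusted p = 2.2e-05), and HSD17B6 (121 to 52.8, -1.16, adjusted p = 0.0066) fell. HSD17B4 lost its call without OE control replicate 2 or 3 or GALNT7 OE replicate 2 or 3 (adjusted p of 0.092 to 0.13), and SRD5A3 without OE control replicate 1 or 3 or GALNT7 OE replicate 1 or 2 (0.059 to 0.086). Both also lost it after rescaling to the 75th percentile (0.11 and 0.12), after quantile normalisation (0.095 and 0.066) and under a block on the replicate number (0.10 and 0.054). HSD17B4 lost it without a filter on low values (0.058) and without a variance trend (0.096) too. Among the STEAP genes in DU145, STEAP4 fell from 196 to 68.4 (-1.51, adjusted p = 0.00046), while STEAP3 (1884 to 1602, -0.24, adjusted p = 0.054, and 0.015 without GALNT7 OE replicate 1) and STEAP1B (74.6 to 94.7, 0.34, adjusted p = 0.13) did not pass the threshold. STEAP3 passed it with a filter at a mean of 20 (0.048), after rescaling to the 75th percentile (0.017) and under the block (0.037). After quantile normalisation both STEAP3 (0.016) and STEAP1B (0.024) passed it.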

How the data were processed

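Total RNA of 12 cell line cultures (4 groups of 3) was made into TruSeq Stranded mRNA libraries. The authors deposited 2 tables of normalised counts (a signal per gene, scaled within each cell line). The submitters' processing notes name FastQC, Salmon, DESeq2, R 3.5.3 and hg38 without saying what each did, and the scaling method and annotation release are not given in the sources used here. Every value of the deposited signal was a whole multiple of the library's smallest value (tolerance 1e-06), and that smallest value was taken as 1 read. In 2 DU145 libraries (OE control replicate 3 and GALNT7 OE replicate 1) it lay so near 1 that this could not be told from rounding, so their read numbers rest on that assumption. A method that scales all genes together cannot show a shift shared by all of them.

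Identifiers were named with GENCODE 29 (GRCh38), which held 56113 of 59424 (94.4%). Genes with a mean of at least 5 were tested on log2(normalised count + 1) with limma 3.58.1 (trended eBayes) in R 4.3.3, within each line, with Benjamini-Hochberg adjustment over all genes tested and a threshold of 0.05. Fold changes on this scale are understated for low genes. Other pseudocounts, filters, scalings, a block on the replicate number, a fit without trend and fits without each library were tried. Fits were tested on simulated data. edgeR 4.0.16 and DESeq2 1.42.0 were run on recovered reads in CWR22RV1; in DU145 they were not run, for the reason given above. Upstream sequences came from RefSeq (GRCh38.p14).

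The 9 targets and all gene lists were chosen with earlier results of these data known. All targets were named, with steroid receptor, repressed, glucocorticoid-responsive, kallikrein and STEAP genes, and from the other lists up to 4 called genes per direction with a mean of at least 50. Some of the genes that this rule names are not reported here.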

Additional observations from a re-analysis of the deposited data

How the results depend on the processing

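Deviations of same-numbered libraries correlated at -0.011, 0.075 and -0.006 in CWR22RV1 and at 0.043, 0.043 and 0.016 in DU145. Other-numbered libraries gave -0.064 to 0.074 in CWR22RV1 and -0.045 to 0.004 in DU145, below the same-numbered values in DU145. Values this small do not settle whether the replicate numbers in the labels pair the samples. Under a replicate block, which treats same-numbered libraries as a pair, the knockdown called 1002 genes in place of 1623, 5 targets in place of 6 (STEAP1 at 0.32, adjusted p = 0.074), 3 cofactors in place of 7 and 2 glucocorticoid-responsive genes in place of 4. The overexpression called 7405 genes in place of 8132 under the block and 3 targets. The block changed no other call of a target. KLK3 and TMPRSS2 in the knockdown and SLC45A3 in the overexpression passed the threshold with the same sign under every alternative run.

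Without a variance trend the knockdown called 996 genes, 2 targets and 2 cofactors, with KLK2 at 0.47, KLK4 at -0.34, STEAP1 at 0.32 and FKBP5 at 0.25 no longer past the threshold. DESeq2 called 2642 genes and edgeR 1546. Without a filter on low values 4 cofactors were called and STEAP1 (0.32, adjusted p = 0.056) was lost, as it was after rescaling to the 75th percentile (0.30, adjusted p = 0.051). Quantile normalisation turned STEAP2 in the knockdown (-0.01), STEAP1B in the knockdown (0.10) and PER1 in the overexpression (0.026). In DU145, rescaling to the 75th percentile gave STEAP1 at -0.34 (now past the threshold) and FKBP5 at 0.14 (no longer past it), and quantile normalisation gave FKBP5 at 0.14. The cause was not tested.

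Leaving out 1 library at a time, with fewer samples in each fit, gave 539 to 1336 genes, 2 to 6 targets, 11 to 16 other androgen-induced genes, 2 to 5 cofactors and 1 to 4 glucocorticoid-responsive genes in the knockdown. In the overexpression it gave 6757 to 7629 genes, 2 to 3 targets, 18 to 20 other androgen-induced genes, 6 to 8 cofactors and 4 glucocorticoid-responsive genes. The log2 fold changes in the knockdown ran from 0.40 to 0.52 for KLK2, 0.94 to 1.10 for KLK3, -0.38 to -0.29 for KLK4, -1.66 to -1.36 for TMPRSS2, 0.27 to 0.39 for STEAP1, -0.047 to 0.089 for STEAP2 and 0.23 to 0.28 for FKBP5. Those in the overexpression ran from -0.33 to -0.19 for STEAP1, -0.52 to -0.36 for STEAP2 and -0.58 to -0.16 for PMEPA1. NR3C2 in the knockdown ran from -0.22 to 0.15, STEAP4 from -0.42 to 0.13, STEAP1B from -0.24 to 0.20, and PER1 in the overexpression from -0.19 to 0.15. KLK2, KLK3, KLK4 and TMPRSS2 in DU145 were at 0 to 13 reads per library and were not tested for a difference between the groups.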
